A study of Rattus norvegicus with 12 samples.

Results

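The cervix of pregnant and nonpregnant rats was examined for 10 genes of the blood vessel wall: 7 endothelial identity genes (Pecam1, Cdh5, Emcn, Eng, Tie1, Tek and Vwf) and 3 endothelin genes (Edn1, Edn2 and Ednrb). They were found by the gene name that the array files give each probe, which yielded all 10 genes on 12 of the 30367 probes, among 26612 gene names. RNA was measured on 12 Agilent 1-colour arrays, 1 adult female Sprague Dawley rat on each, with 3 rats in each of 4 groups. D21 rats were pregnant and were taken on day 21 after breeding, the day before birth. Nonpregnant (NP) rats were taken in proestrus. In all 4 groups saline was perfused through the rat and collagenase was used to bring the cervix into a cell suspension. In the Mφ-depleted groups, macrophages (Mφs) were pulled out of the suspension with the ED1 antibody and magnetic beads. Suspensions of the whole groups went to the freezer with neither antibody nor beads, and they came from other rats than the Mφ-depleted cells. The series asks which genes of the cervix belong to Mφs, from whole cervix set against cervix without Mφs, in D21 rats and in NP rats.

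Endothelial cells line blood vessels. They hold together through VE-cadherin (Cdh5) and PECAM-1 (Pecam1), carry the sialomucin endomucin (Emcn) on their surface, and store von Willebrand factor (Vwf), which binds platelets, in Weibel-Palade bodies. TIE2 (Tek) is the receptor of the angiopoietins and TIE1 (Tie1) its partner, and endoglin (Eng) is a coreceptor for ligands of the TGF-β and BMP family. Endothelins are short peptides that act on vessels and on smooth muscle. Endothelin-1 (Edn1) is the form best known from endothelium, endothelin-2 (Edn2) is also made by epithelia and the ovary, and the B receptor (Ednrb) binds both. Several of these genes are not endothelial alone, and the other sources named here are examples, not a full list. Pecam1 and Vwf are also expressed in platelets and their precursors, Eng in macrophages and stromal cells, and Ednrb in Schwann cells and melanocytes.

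Levels are given on the log2 scale relative to the 75th percentile of the intensities of each array, so that 0 is that percentile and a difference of 1 is 2-fold. Levels of different genes come from different probes and are not set against each other. A gene was tested with limma where all 3 arrays of a group in the comparison were rated well above background by the scanner software. It was called at the threshold of the study, 2-fold or more with p below 0.01 before adjustment, and p-values adjusted over all genes tested (Benjamini-Hochberg) are given beside it. The 75th percentile ran from 289.8 to 1171 intensity units, the share of probes rated well above background ran from 44.9% to 61.7% by array, and arrays of 1 group correlated with r between 0.906 and 0.987 over 10913 genes. The 12 arrays lay on 4 slides and were scanned on 3 days. All whole arrays were scanned on the last day together with Mφ-depleted cervix of D21 rat 4 and NP rat 7, and the other 4 Mφ-depleted arrays on the earlier days. All D21 whole arrays shared 1 slide with whole cervix of NP rat 10.

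The identity genes were detected in every group, which does not show that their RNA came from endothelium alone. Pecam1, Cdh5, Emcn, Eng, Tie1 and Vwf were well above background on all 12 arrays, and Tek on 7. Of the endothelin genes, Edn1 was well above background on 11 arrays, Ednrb on 10 and Edn2 on 5, all of them Mφ-depleted. No probe of the 10 genes was saturated.

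The whole and Mφ-depleted groups differed in more than the Mφ genes, and the values here stand beside every comparison of whole with Mφ-depleted cervix below. The mean level of 11 Mφ markers in D21 rats was 1.64 in whole cervix and -3.09 after depletion, and in NP rats 1.14 and -3.60. In Mφ-depleted cervix 3 of the 11 markers in D21 rats and 4 in NP rats were well above background on no array. On all 3 arrays of the group, 4 markers in D21 and 3 in NP rats still were. Smooth muscle markers (8 genes) went from 4.28 to 1.87 in D21 and from 5.08 to 0.56 in NP rats, fibroblast markers (8 genes) from 4.66 to 3.51 and from 4.80 to 0.39, and mural cell markers (6 genes) from -0.11 to -0.79 and from 0.33 to -1.51. Lymphatic endothelial markers (5 of 6 genes) went from 0.48 to -1.32 and from 0.55 to -0.96, and platelet markers (3 of 4 genes) from -0.36 to -2.49 and from -1.01 to -2.36. Epithelial markers (8 genes) went the other way, from 4.64 to 5.45 and from 3.399 to 4.91, as did immediate-early genes (11 of 12), from -0.64 to 2.72 and from -1.08 to 1.55. Housekeeping genes (7 of 8) stood at 4.11 and 4.12 in D21 and at 4.29 and 4.37 in NP rats. What part these shifts have in the changes of the endothelial genes was not tested. In a cell suspension of this kind, fewer cells of a type and less RNA per cell cannot be told apart, and neither can a loss of cells and a gain of others that moves the 75th percentile.

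**Figure D1:**
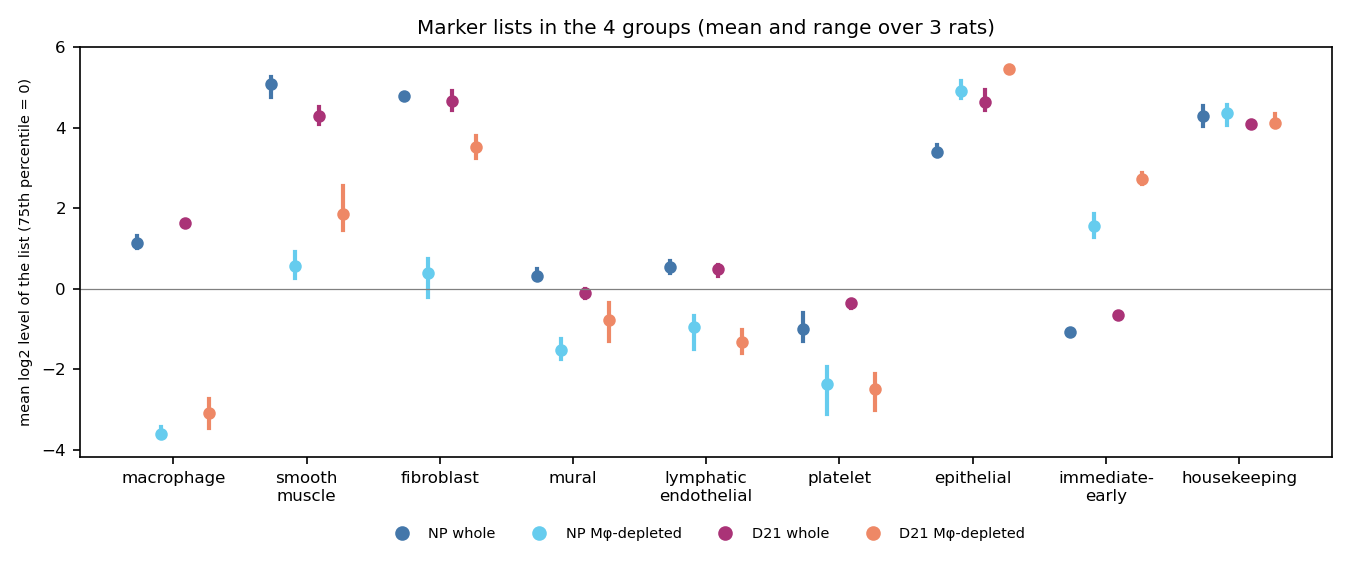
Mean log2 level of 9 lists of marker genes (vertical axis, 75th percentile of the array at 0) in the 4 groups; points are means over 3 rats and bars run from the lowest to the highest rat. The mean of the Mφ list lies above 1 in whole and below -3 in Mφ-depleted cervix, and the smooth muscle, fibroblast, mural, lymphatic and platelet lists are also lower, and the epithelial and immediate-early lists higher, in Mφ-depleted cervix.

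In whole cervix D21 and NP rats differed by a call for none of these genes. With 9 of the genes tested (no whole array had Edn2 well above background), 0 were called in either direction, where 8.48% of the 14056 genes tested were called. By limma with the adjusted p the count was 0 as well, against 5.88% of all genes, and 1 gene had an unadjusted p below 0.05. The ranges of the D21 and NP rats did not overlap for 2 of the 9 genes, Cdh5 and Emcn, against 44.3% of all genes tested. The median log2 change of the 9 genes was 0.18, beside -0.08 over all genes.

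Cdh5, the adhesion protein of the endothelial junction, came closest to the threshold. Its level was -1.41, -1.38 and -1.52 in D21 rats 5, 6 and 7 and -2.28, -2.21 and -1.96 in NP rats 8, 9 and 10. The D21 rats all exceeded the NP rats, and the 3 D21 rats lay close together. The log2 change was 0.71 (± 0.23 SE, unadjusted p = 0.00987, limma adjusted p = 0.0932), which is 1.64-fold and short of the 2-fold limit. With slide as a block it was 0.52 (limma adjusted p = 0.531), with quantile normalization 0.78 (adjusted p = 0.0286), and the 6 whole arrays fitted alone gave an adjusted p of 0.0307, in each case short of 2-fold.

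Emcn, the endothelial sialomucin, lay the other way. Its level was -0.19, 0.30 and -0.22 in the D21 rats and 0.36, 0.42 and 0.97 in the NP rats, with no overlap between the groups. The log2 change was -0.62 (± 0.30 SE, limma adjusted p = 0.244). For the other identity genes the values of D21 and NP rats overlapped, with log2 changes of 0.26 for Pecam1 (± 0.41 SE), 0.31 for Eng (0.28), -0.25 for Tie1 (0.36), 0.15 for Tek (0.57) and 0.18 for Vwf (0.39).

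The spread among NP rats was uneven. Whole NP rat 10 had the highest level of its group for all 7 identity genes, and NP rat 8 the lowest for 5 of them. Tie1 was 0.02 in NP rat 10 against -1.02 and -0.95 in rats 8 and 9, and Vwf 0.18 against -0.98 and -0.58. The 75th percentile of intensity was 309.4 in rat 8, 509.4 in rat 9 and 815.4 in rat 10, and rat 10 lay on another slide than rats 8 and 9. In the other groups no rat was highest for more than 5 of the 7 genes.

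**Figure D2:**
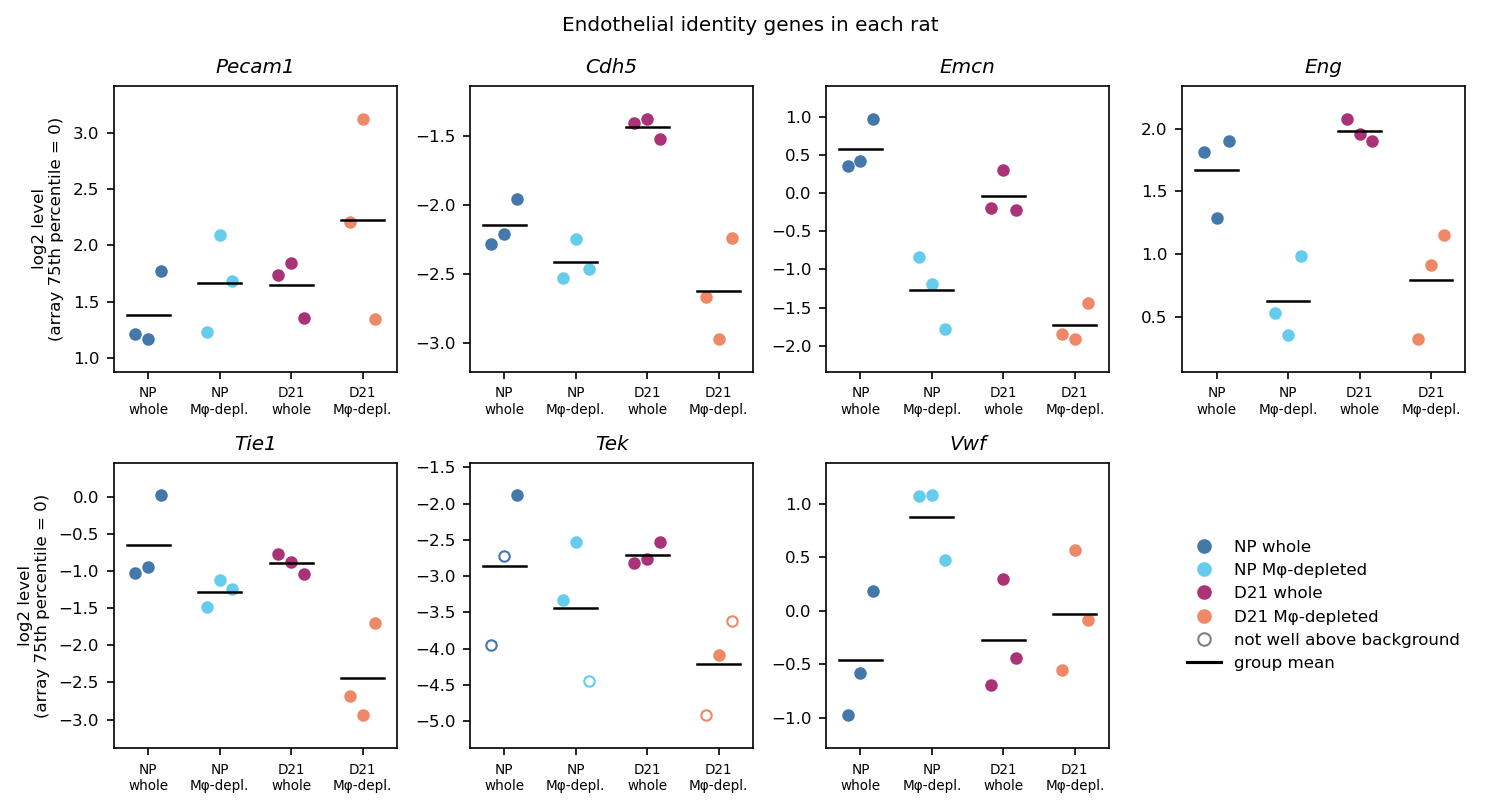
Log2 level of the 7 identity genes (vertical axes, 75th percentile of the array at 0, each panel on its own scale) in each rat of the 4 groups; filled points were well above background, open points were not, and lines are group means. Emcn and Eng are lower in Mφ-depleted than in whole cervix in both D21 and NP rats, Cdh5 is highest in D21 whole cervix, and Vwf is highest in NP Mφ-depleted cervix.

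Between whole and Mφ-depleted cervix part of the identity genes differed. In D21 rats all 10 genes were tested. Of these, 4 were called higher in whole cervix, against 10.0% of the 14256 genes tested, and 1 lower, against 7.72% (17.8% in either direction). The genes higher were Emcn, Cdh5, Tie1 and Eng, and the gene lower was Edn2, and the same 5 had an adjusted p below 0.05, against 22.4% of all genes. The ranges did not overlap for 7 of the 10 genes, against 44.5% of all genes. In NP rats 8 genes were tested, 3 were called higher in whole cervix (Emcn, Eng and Ednrb), against 13.6% of 13409 genes, and 1 lower (Vwf), against 10.8% (24.3% in either direction). Their adjusted p was below 0.05 too, against 32.8% of all genes, and 5 of the 8 ranges did not overlap, against 47.1%. At the same threshold the t-test of the study's methods called Emcn and Edn2 in D21 rats and Emcn in NP rats, and no other member. The median log2 change of the genes tested was 1.19 in D21 and 0.45 in NP rats, beside -0.06 and -0.04 over all genes. The D21 whole and NP whole arrays entered the comparison of pregnancy above as well.

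Emcn had the largest fall of the identity genes in both D21 and NP rats. In D21 rats it went from -0.19, 0.30 and -0.22 in whole cervix to -1.84, -1.91 and -1.44 in Mφ-depleted rats 1, 2 and 4. In NP rats it went from 0.36, 0.42 and 0.97 to -0.84, -1.19 and -1.78 in Mφ-depleted rats 5, 6 and 7. Every whole rat lay above every Mφ-depleted rat in both. The log2 change was 1.70 in D21 (± 0.30 SE, limma adjusted p = 0.00385) and 1.86 in NP rats (± 0.30 SE, limma adjusted p = 6.95e-04), or 3.24-fold and 3.63-fold. The difference of 1.86 in NP rats was called at the threshold of the study under 11 alternatives, and by the methods' t-test with adjustment, under which no member was called, it was not. In D21 rats it fell to 0.65 with normexp background correction and to 1.18 with slide as a block, and was not called under either. On the last scan day alone, whole cervix exceeded the single Mφ-depleted array by 1.40 in D21 and 2.37 in NP rats.

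Eng, the coreceptor, was called higher in whole cervix in both as well. Its level was 2.08, 1.96 and 1.90 in D21 whole and 0.32, 0.91 and 1.15 in D21 Mφ-depleted rats, and 1.81, 1.29 and 1.90 in NP whole and 0.53, 0.35 and 0.99 in NP Mφ-depleted rats. The groups did not overlap in either case. The log2 changes were 1.18 (± 0.28 SE, limma adjusted p = 0.0159) in D21 and 1.05 (± 0.28 SE, limma adjusted p = 0.0144) in NP rats. They fell to 0.39 and 0.65 when slide was the block and to 0.74 and 0.77 when it was scan day, without a call under either. Both were lost by the methods' t-test as well. The NP call was also lost with normexp background correction (0.94) and when Mφ-depleted rat 5 or 6 or whole rat 8 or 10 was left out (0.91 to 1.24 over the 6 rats left out in turn), and the D21 call when Mφ-depleted rat 1 was (0.95).

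Cdh5 and the receptor Tie1 were called lower in Mφ-depleted cervix of D21 rats only, and the receptor Tek was not called. Cdh5 stood at -2.66, -2.97 and -2.24 in D21 Mφ-depleted rats 1, 2 and 4, below all D21 whole rats, and the log2 change was 1.19 (± 0.23 SE, limma adjusted p = 0.00643). In NP rats it was -2.53, -2.25 and -2.46 after depletion, overlapping with the whole rats, and the log2 change was 0.27 (± 0.23 SE, limma adjusted p = 0.398). Of all groups, D21 whole cervix held the highest Cdh5 level, and the other 3 group means lay between -2.15 and -2.62 with overlapping neighbours.

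Tie1 was -0.77, -0.87 and -1.04 in D21 whole and -2.69, -2.94 and -1.70 in D21 Mφ-depleted rats, a log2 change of 1.54 (± 0.36 SE, limma adjusted p = 0.0145). In NP Mφ-depleted rats it was -1.48, -1.12 and -1.24, below all NP whole rats, with a log2 change of 0.63 (± 0.36 SE, limma adjusted p = 0.2). The D21 call of Tie1 was lost with slide as a block (0.14, limma adjusted p = 0.957), scan day as a block (1.14) and normexp (0.83), and that of Cdh5 with slide as a block (0.74), normexp (0.35) and quantile normalization (0.92). Both were also lost by the methods' t-test. On the last scan day alone both stood at 0.80.

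Tek was near the limit of detection. It was -2.83, -2.76 and -2.52 in D21 whole rats and -4.92, -4.09 and -3.62 in D21 Mφ-depleted rats, of which rat 2 alone was well above background. The groups did not overlap, and the log2 change of 1.51 was not called (± 0.57 SE, limma adjusted p = 0.0752). With limma on the 6 arrays compared the same difference was called (adjusted p = 0.0354), with normexp it was -0.14 and with slide as a block 0.03. In NP rats Tek was well above background on 1 whole and 2 Mφ-depleted arrays and was not tested.

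Pecam1 was called in neither. Its level was 1.74, 1.84 and 1.36 in D21 whole and 2.21, 3.12 and 1.34 in D21 Mφ-depleted rats, the widest spread of any identity gene that was well above background on all 12 arrays. The log2 change was -0.58 (± 0.41 SE, limma adjusted p = 0.314). In NP rats it was 1.21, 1.17 and 1.77 in whole and 1.23, 2.09 and 1.69 in Mφ-depleted cervix, with a log2 change of -0.29 (± 0.41 SE, limma adjusted p = 0.622). The 4 groups of Pecam1 overlapped with their neighbours in the order of the means.

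Vwf was the identity gene called in the opposite direction. In NP rats it rose from -0.98, -0.58 and 0.18 in whole to 1.07, 1.08 and 0.48 in Mφ-depleted cervix, with no overlap, a log2 change of -1.33 for whole minus Mφ-depleted (± 0.39 SE, limma adjusted p = 0.0229), or 2.52-fold. In D21 rats it was -0.69, 0.30 and -0.44 in whole and -0.56, 0.57 and -0.09 in Mφ-depleted cervix, which overlapped (log2 change -0.25, ± 0.39 SE, limma adjusted p = 0.664). The NP call was lost when Mφ-depleted rat 5 or 6 or whole rat 8 or 9 was left out (-1.65 to -1.07 over the 6 rats), with slide (-1.24) or scan day (-0.92) as a block, with the mean of all probes (-0.75) and by the methods' t-test.

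The array holds 3 probes for Vwf. The first 30 of the 60 bases of each, as the array files give them, are printed here because the probes differ in what they detected:
Vwf probe at 161854554 to 161854613: tggctcggttgtgcaccacgaggtcatcaa
Vwf probe at 161854702 to 161854759: tgtgcatcctgccctttgtgccctcctggg
Vwf probe at 161738186 to 161738245: aacacacacacacttaaatatgacgtacac
All lie on chromosome 4 of the rn4 build, written from low to high coordinate as plus-strand positions. The first and second lie close together and were well above background on all 12 arrays. The first, which is the brightest and was used, gave -1.33 in NP rats, and the second gave -1.27 (limma adjusted p = 0.00689 over all probes). The third, which lies far from both, was well above background on no array, and it enters the mean of all probes given above.

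**Figure D3:**
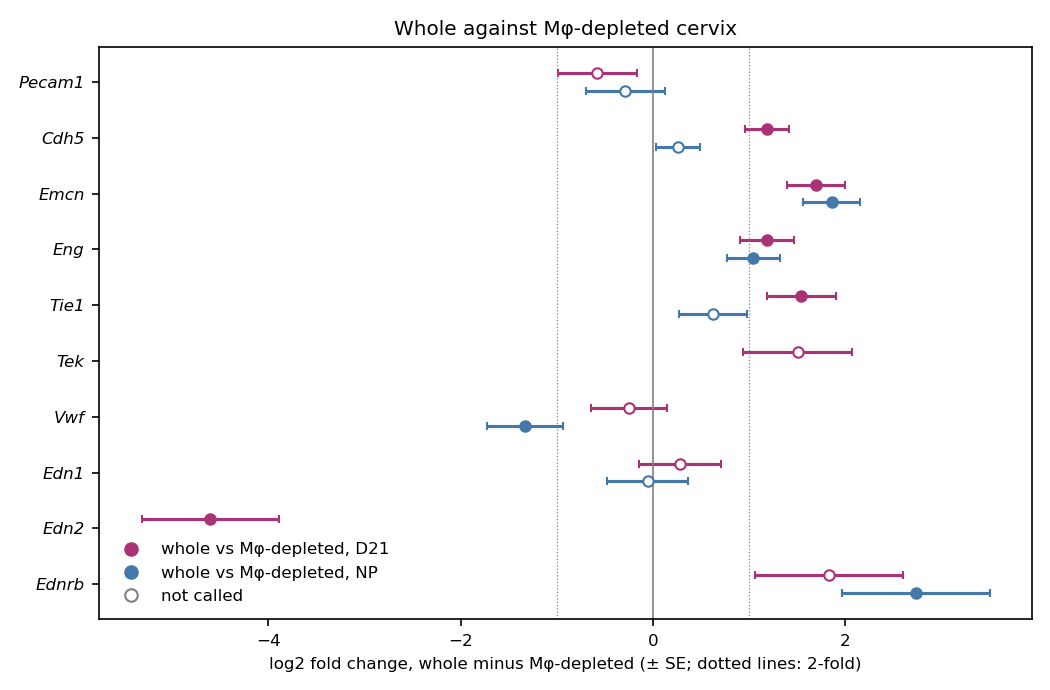
Log2 difference of whole minus Mφ-depleted cervix (horizontal axis, bars are standard errors from limma, dotted lines mark 2-fold) for the genes tested in D21 and in NP rats; filled points were called at p below 0.01 with 2-fold. Emcn and Eng lie to the right in both, Vwf to the left in NP rats, and Edn2, whose whole arrays were not above background, far to the left in D21 rats.

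Edn2 showed the widest difference of the 10 genes. It was well above background on no whole array. In Mφ-depleted cervix its level was -0.47, -1.47 and -1.93 in D21 rats 1, 2 and 4, all well above background. It was 0.00 and -0.65 in NP rats 5 and 6, both well above background, and -3.17 in NP rat 7, which was not. The signals of the whole arrays were -6.55, -5.18 and -5.96 in D21 and -5.07, -5.30 and -6.02 in NP rats. Without the rating well above background, they are not read as levels. At the main settings, with a floor in place of these signals, D21 whole cervix lay 7.82-fold below D21 Mφ-depleted cervix. The floor, explained below, is not a detection limit. Probes not rated well above background can lie above it, as Tek did in NP whole rat 9 (-2.72, floor -3.95). The fold of Edn2 was not tested, and the differences with normexp and with slide as a block, given below, were smaller. The measured log2 difference of -4.60, which takes the whole signals as they stand, had a limma adjusted p of 0.00207. In NP rats Edn2 was not tested, and with 1 Mφ-depleted array not above background no fold is given. That array, of rat 7, is the single NP Mφ-depleted array scanned on the day of the whole arrays, and there the measured difference was -2.30 with neither side well above background. As the floor, each array of the dimmer group had the lowest level rated well above background on it. The higher of this and the level of the probe was taken, and its mean was compared with that of the brighter group. Between D21 and NP Mφ-depleted cervix the Edn2 difference was -0.02 (± 0.71 SE, limma adjusted p = 0.992). The D21 call of Edn2 was lost with normexp (log2 change -1.50) and with slide as a block (-2.45), and on the last scan day alone the measured difference in D21 rats was -3.96. From these same arrays, the study names Edn2 among genes that were lower in whole cervix of D21 rats only. In NP rats every whole array also measured below every Mφ-depleted array, and a restriction of Edn2 to D21 rats was not tested here.

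Edn1 was not called in any of the 4 comparisons. Its level was -1.65, -2.13 and -2.21 in D21 whole, -1.96, -2.80 and -2.07 in D21 Mφ-depleted, -2.74, -1.45 and -2.97 in NP whole and -2.89, -1.79 and -2.32 in NP Mφ-depleted rats. The 4 group means lay within 0.39 of each other, while the SD within a group reached 0.82. The log2 changes were 0.39 for D21 against NP whole cervix (± 0.42 SE), 0.28 for whole against Mφ-depleted cervix in D21 (0.42), -0.05 in NP rats (0.42) and 0.06 for D21 against NP Mφ-depleted cervix (0.42), with adjusted p-values from limma between 0.621 and 0.952. The probe of Edn1 (rn4 chromosome 17, 28304023 to 28304082) was spotted 10 times on each array, so that its measuring error can be read (outlier spots left 6 in D21 whole rat 6 and 9 in NP Mφ-depleted rat 7). The SD between spots of 1 array was between 0.08 and 0.59, and highest in NP whole rats 8 and 10, where 5 and 9 of the 10 spots were well above background.

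The 250 bases before the start of each ligand gene are printed because the peptides are close relatives. Edn2 was called between whole and Mφ-depleted cervix of D21 rats and Edn1 was not, and any part of these sequences in that was not tested. They are from RefSeq in the GRCr8 build and run 5′ to 3′ on the strand of the gene. Capitals mark matches, on either strand, to the TATA box, searched as TATAAA, and to the site of GATA factors, searched as AGATAA:
Edn1: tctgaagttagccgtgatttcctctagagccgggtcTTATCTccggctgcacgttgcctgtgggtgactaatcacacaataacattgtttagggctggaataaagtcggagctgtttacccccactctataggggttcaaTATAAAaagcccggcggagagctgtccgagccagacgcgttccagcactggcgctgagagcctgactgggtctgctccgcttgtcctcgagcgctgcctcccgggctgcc
Edn2: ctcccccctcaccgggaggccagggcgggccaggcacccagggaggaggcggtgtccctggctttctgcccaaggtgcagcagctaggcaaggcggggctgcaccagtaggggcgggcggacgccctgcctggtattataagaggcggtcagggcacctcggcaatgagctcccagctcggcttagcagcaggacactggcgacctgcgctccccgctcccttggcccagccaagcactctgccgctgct
The Edn1 stretch lies on chromosome 17, 22666688 to 22666937, minus strand, and the Edn2 stretch on chromosome 5, 139036326 to 139036575, plus strand. Edn1 held 1 TATA and 1 GATA match, motifs found in 12.9% and 10.3% of 33469 promoters of the same length. Edn2 held neither. None of the 4 motifs searched contains another. The letters of the AP-1 motif (TGANTCA, in 6.34% of promoters) and of the CRE motif (TGACGTCA, in 1.59%), where immediate-early factors and CREB are known to bind, were in neither stretch, nor in the stretches of Emcn, Eng, Tie1 and Ednrb, the other members with a promoter in the table (6 of 10). A missing match says only that these letters are not in this window.

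Ednrb, the endothelin B receptor, was called lower in Mφ-depleted cervix of NP rats, among which it varied widely. It was -1.27, -1.33 and -1.45 in D21 whole and -3.34, -2.04 and -4.15 in D21 Mφ-depleted rats, which did not overlap. It was -2.82, 0.39 and -1.82 in NP whole and -3.11, -4.30 and -5.02 in NP Mφ-depleted rats, which did not overlap either. D21 rat 4 and NP rat 7, both Mφ-depleted, were not well above background. The log2 change was 1.83 in D21 (± 0.77 SE, limma adjusted p = 0.104), not called, and 2.73 in NP rats (± 0.77 SE, limma adjusted p = 0.0188), called. The mean level of 4 of 6 Schwann cell markers went from -1.53 to -2.45 after depletion in D21 rats and from -1.57 to -2.25 in NP rats, with ranges over rats that overlapped in both, and its part in the Ednrb values was not tested. The NP value ran from 1.83 to 3.43 with 1 rat left out, and the call was lost without whole rat 9 or without Mφ-depleted rat 6 or 7. With limma on the 6 arrays compared, the D21 difference was called and the NP difference was not, and the NP call was also lost with normexp (1.61), quantile normalization (2.99) and the methods' t-test. With slide as a block the values were 3.18 in D21 and 4.04 in NP rats, and normexp gave 0.42 in D21 rats.

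**Figure D4:**
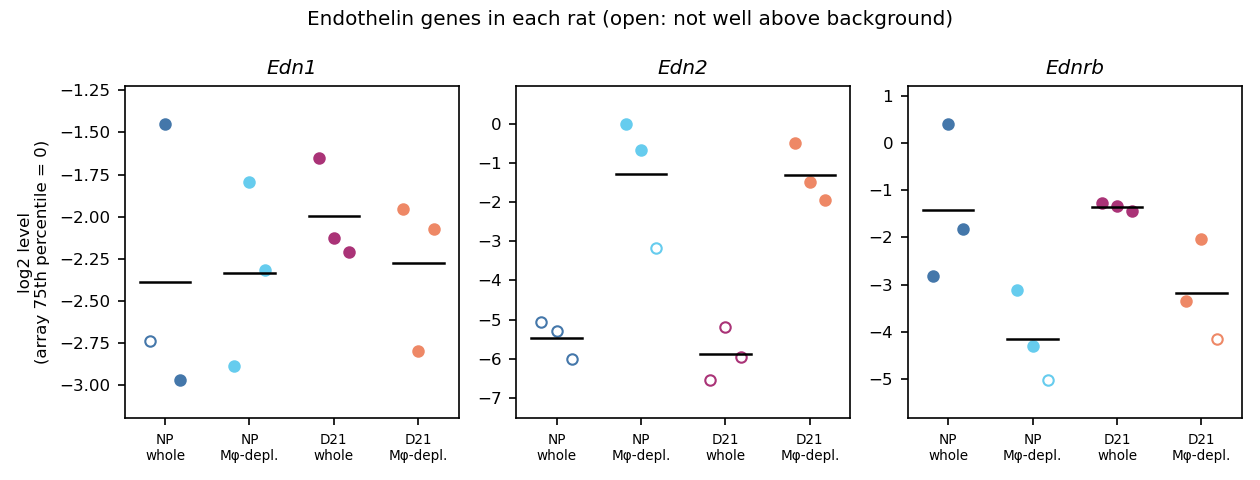
Log2 level of Edn1, Edn2 and Ednrb (vertical axes, 75th percentile of the array at 0, each panel on its own scale) in each rat of the 4 groups; filled points were well above background, open points were not, and lines are group means. Edn2 is well above background only in Mφ-depleted cervix, the Edn1 values overlap among all groups, and the Ednrb values of whole and Mφ-depleted cervix do not overlap in D21 or in NP rats.

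Whether depletion moved these genes more in D21 than in NP rats was tested as an interaction. It was significant for 0 of the 10 genes by limma after adjustment, against 2.40% of 14565 genes tested, and 1 gene, Cdh5, had an unadjusted p below 0.05. The whole minus Mφ-depleted difference of Cdh5 was greater in D21 than in NP rats by 0.92 (± 0.33 SE, unadjusted p = 0.0163, limma adjusted p = 0.161). Without Mφ-depleted D21 rat 4 the difference was 1.12 (limma adjusted p = 0.0261). For Vwf it was 1.08 (± 0.56 SE, limma adjusted p = 0.321) and for Tie1 0.92 (± 0.51 SE, limma adjusted p = 0.352). The calls of Cdh5 and Tie1 in D21 rats alone, and of Vwf and Ednrb in NP rats alone, are thus not shown to differ between them.

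Between D21 and NP Mφ-depleted cervix 8 genes were tested. Tie1 was called lower in D21 rats, 1 gene against 2.06% of the 13406 genes tested (7.50% in either direction), and 0 were called higher. Its log2 change was -1.16 (± 0.35 SE, limma adjusted p = 0.0957), with every D21 rat below every NP rat, which was the case for 1 of the 8 genes in either direction, against 17.1% of all genes. By the adjusted p 0 of the 8 genes were significant in limma, against 4.59%, and 2 had an unadjusted p below 0.05. The call of Tie1 was lost when any rat but Mφ-depleted D21 rat 4 was left out (-1.54 to -0.91). The other gene was Vwf, at -0.90 (± 0.39 SE, limma adjusted p = 0.212).

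The partners of these genes were read from lists. Of the 7 other endothelin system genes on the array, 3 were tested in each comparison, and Edn3 was well above background on no array. Ednra is the endothelin A receptor of smooth muscle. Its level in NP whole cervix, at the main settings and with the floor used for Edn2, was 7.40-fold that of NP Mφ-depleted cervix. In D21 Mφ-depleted cervix it was 5.64-fold. No NP Mφ-depleted array was well above background for Ednra, and these folds were not tested. The measured log2 differences were 3.85 and 3.46 (limma adjusted p = 2.46e-05 and 5.41e-04). They fell as low as 1.776 and 1.865 under alternatives, and each was called under 10 of 10. Mme, the peptidase neprilysin, was higher in whole cervix of NP rats by 3.14 (± 0.54 SE, limma adjusted p = 0.00116). In D21 rats 0 of the 3 genes were called between whole and Mφ-depleted cervix, beside 17.8% of all genes tested. The endothelin converting enzyme Ece1 was 3.12 in D21 whole and 3.35 in D21 Mφ-depleted rats, and 2.73 and 3.70 in NP rats, where the difference of -0.97 had an adjusted p of 0.0408 from limma without reaching 2-fold.

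Of the von Willebrand factor partners, 2 of 4 on the array were tested. Selp is the P-selectin that is stored with Vwf in Weibel-Palade bodies and also in platelets. The whole groups had less of it than the Mφ-depleted groups, for D21 and NP rats alike. The mean level of Selp was -1.98 in D21 whole and -0.15 in D21 Mφ-depleted rats, a log2 change of -1.83 (± 0.42 SE, limma adjusted p = 0.0134). It was -1.57 and 0.67 in NP rats, a log2 change of -2.25 (± 0.41 SE, limma adjusted p = 0.00185). The values of Selp kept this direction under all 11 alternatives and were called under 9 and 10 of them.

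Of the 21 other blood endothelial genes on the array, 19 were tested in D21 rats, of which 3 were called higher in whole cervix and 0 lower (10.0% and 7.72% of all genes tested), and 18 in NP rats, of which 5 were called higher and 1 lower (13.6% and 10.8% of all genes tested). Their median log2 changes were 0.37 and 0.24. Cd34, which stromal cells also carry, was higher in whole cervix of D21 rats by 1.86 (limma adjusted p = 0.0371). With slide as the block this was 0.15. In NP rats, where no Mφ-depleted array was well above background, Cd34 was 9.29-fold higher at the main settings with the floor used for Edn2. The measured log2 difference of 4.78 fell as low as 1.96 under alternatives. Sox18, an endothelial transcription factor, was higher by 1.64 in NP rats (limma adjusted p = 0.00694). Its relative Sox7 was lower in whole cervix there, by -1.70 (limma adjusted p = 0.00834). Kdr, the main receptor of VEGF-A on endothelium, was higher by 1.06 in whole cervix of NP rats (limma adjusted p = 0.033). After depletion it was higher in D21 than in NP rats by 1.61 (± 0.34 SE, limma adjusted p = 0.0207). Between D21 and NP whole cervix 0 of 19 were called, beside 8.48% of all genes tested. The call of Kdr between the Mφ-depleted groups held under 10 of 11 alternatives, and those of Kdr, Sox18 and Sox7 in NP rats under 8, 8 and 7.

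Among the angiopoietin genes, Angpt4, a ligand of TIE2, was higher in D21 than NP whole cervix by 1.91 (limma adjusted p = 0.0788). D21 whole cervix exceeded D21 Mφ-depleted cervix by 2.29 (limma adjusted p = 0.0208). In each of these comparisons Angpt4 was the 1 gene called of 3 tested, beside 8.48% and 17.8% of all genes in either direction. In each of the other comparisons 1 of the 4 genes on the array was tested, and 0 were called. Angpt4 was well above background on 1 of 3 NP whole and 2 of 3 D21 Mφ-depleted arrays. Its differences fell as low as 1.12 and 0.29, and each was called under 7 of 10 alternatives. In the endoglin complex, the receptor Acvrl1 was higher in whole cervix of NP rats by 1.30 (limma adjusted p = 0.00227) and in D21 over NP Mφ-depleted cervix by 1.21 (limma adjusted p = 0.0187), and the coreceptor Tgfbr3 was called higher in whole cervix of both D21 and NP rats. Its level was well above background on all whole arrays but on 1 of 3 D21 and 2 of 3 NP Mφ-depleted arrays, so that the measured differences of 4.44 and 3.29 are in part against background. They fell as low as 1.62 and 1.64, and each was called under 7 of 10 alternatives. Smad1, which carries the signal to the nucleus, was lower in whole cervix of D21 rats (-1.25, limma adjusted p = 0.0352) and was called under 6 of 11 alternatives. Of the 4 junction partners of Cdh5, Jup was lower in whole cervix of NP rats by -1.95 (limma adjusted p = 0.00787). Jup is also a main protein of epithelial junctions.

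The genes whose pattern over the 12 arrays was most like a member were sought among 10913 genes well above background on every array. For Cdh5 these were Stx3 (Pearson r = 0.978), Gbe1 (0.926), Tmprss11b (0.924), Tmem167b (0.924) and Bloc1s6 (0.923). For Edn1 they were Cp (0.837), Zfp455l1 (0.80), Gabrp (0.792), Zmym1 (0.783) and Slco1a5 (0.773), and for Ednrb Sod3 (0.93), Tmem17 (0.929), the transcript TC598924 (0.915), Pde9a (0.91) and Tnfsf12 (0.907). The highest values out of so many genes are a description, over arrays that share groups, slides and intensity.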

How the data were processed

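The authors hybridised RNA of each rat to a 1-colour Agilent rat array and deposited the scanner intensity of every spot as Feature Extraction 9.5.3.1 wrote it, background subtracted, before any scaling of 1 array to another. In a second table the authors deposited a ratio for each probe and array, made in GeneSpring per their methods, whose scale is not named. Each column matched the intensity of its array divided by the 75th percentile (r of at least 0.9999 on the log2 scale), so it was read as not centred and used as an alternative only. The medians of its columns were 0.08 to 0.12.

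Control spots and outlier spots (294 to 648 on an array) were left out, repeat spots averaged by probe, and each array set to 0 at its 75th percentile on the log2 scale. Probes were named through RefSeq accessions (17328 of 30367, 57.1%), otherwise by the array files, and the brightest probe of a gene was used. Members were taken by the name in the array files. Tests used limma 3.58.1 in R 4.3.3 with a mean for each group and all 12 arrays sharing the spread, tested on simulated data beforehand. The interaction was called at an adjusted p below 0.05. Plots used matplotlib 3.10.9.

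Groups and rat numbers came from the labels, and no rat gave more than 1 array. The text names the 10 members, from each pathway list at most the 4 genes with the largest change among those called (a gene called in several comparisons once), and the 5 genes most correlated with Cdh5, Edn1 and Ednrb. Edn3 and Ece1 were added after their values were seen. The members, lists and rules were chosen with earlier results of these data known. Alternatives tried were limma on the 6 arrays compared, the t-test of the methods (raw and adjusted), the adjusted threshold, normexp (offset 50), quantile normalization, another percentile, other filters on background, the mean of all probes, a block by slide or by scan day, the authors' values and leaving out each rat. The number of arrays limits the precision: 3 rats stand in each group.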

Additional observations from a re-analysis of the deposited data

How the results depend on the processing

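Of 587 values of single members under alternatives, 497 kept the direction and the call, 49 were no longer called, 2 were newly called and 39 changed sign, and 0 of those 39 were called in either fit. In D21 rats 4 members were called higher in whole cervix, against 0 by the methods' t-test with adjustment and with slide as a block, 1 by the methods' t-test and with normexp, 2 with scan day as a block, and 6 with limma on the 6 arrays, which adds Tek and Ednrb. The 1 member called lower, Edn2, became 0 by the methods' t-test with adjustment, with normexp and with slide as a block. A filter on every array also gave 0, but it left Edn2 untested, so this is not a lost call. In NP rats the 3 higher became 0 by the methods' t-test with adjustment, 1 with normexp or the methods' t-test, and between 1 (without Mφ-depleted rat 6) and 2 without 1 rat. The 1 lower became 2 with no filter on background, which adds Edn2, and 0 with the mean of all probes, slide or scan day as a block and both forms of the methods' t-test. Without 1 rat it was 0 to 2, and 2 without Mφ-depleted rat 7. The 1 lower in D21 than NP Mφ-depleted cervix became 0 by the adjusted p, both forms of the methods' t-test, limma on 6 arrays, normexp, no filter and scan day as a block, and 0 to 1 without 1 rat. The interaction count of 0 was 0 to 1 without 1 rat.

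The values that changed sign are these, as log2 changes. Between D21 and NP whole cervix, slide as a block gave -0.12 for Pecam1, -0.81 for Tek and -0.46 for Vwf, and normexp gave -0.053 for Ednrb. Without 1 rat Tie1 ran from -0.43 to 0.088, Tek from -0.40 to 0.64, Vwf from -0.11 to 0.50 and Ednrb from -0.64 to 0.97. Between whole and Mφ-depleted cervix of D21 rats, normexp gave -0.14 for Tek and -0.050 for Edn1, and Vwf ran from -0.54 to 0.046 without 1 rat. In NP rats, slide as a block gave 0.020 for Pecam1, -0.011 for Cdh5, -0.086 for Tie1 and 0.022 for Edn1, and scan day as a block gave 0.21 for Pecam1. Edn1 was 0.12 with normexp and 0.022 in the authors' values, and ran from -0.52 to 0.24 without 1 rat. Between D21 and NP Mφ-depleted cervix, normexp gave 0.48 for Cdh5, 0.10 for Emcn, -0.058 for Eng and 0.010 for Edn2, quantile normalization gave 0.057 for Edn2, and Edn1 was -0.11 with another percentile (over the probes that every array detected) and -0.16 with slide or scan day as a block. Without 1 rat Eng ran from -0.0067 to 0.41, Edn1 from -0.22 to 0.33 and Edn2 from -0.96 to 0.62. The cause was not tested.

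No paired analysis was possible because the groups compared share fewer than 2 rat numbers, and a number names a different rat in each group. That percentile moved the median of all genes from -0.06 to 0.13 for whole against Mφ-depleted cervix of D21 rats and from 0.02 to -0.14 between the Mφ-depleted groups. Slides hold unequal parts of the groups: D21 whole and D21 Mφ-depleted arrays share none, so that a block by slide compares them through NP arrays. Signal limits Edn2 in whole cervix, Tek, and Ednrb in Mφ-depleted cervix, which lie near background. Where a group is left with 2 rats, it is assumed to vary like the others. Whether the spread between rats of a group includes differences of dispersal or separation was not tested.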
